A study of Mus musculus with 2 samples.

Results

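The effector genes of neuronal activity Arc, Npas4, Nptx2, Inhba and Plk2 were followed in the hippocampus of mice dosed with cerium chloride and of control mice. They were found by symbol: 5 of the 19057 genes named on an Illumina whole-genome bead array, read by 7 of its 45281 probes, each of which carries 1 of the 5 symbols as its single gene name. The CeCl3 array held hippocampal RNA of male ICR mice, an outbred stock, given cerium chloride (CeCl3, a salt of a lanthanide metal) into the stomach daily for 90 days. Its label names the doses 0.5, 1 and 2 mg per kg of body weight together, so the dose on the array is not known. The control array held RNA of ICR mice, also labelled male, given purified water over the same time. Both labels give an age of 4 weeks, which is shorter than the dosing. The study used 300 mice in groups of 75, and the number of mice behind each array is not known. Each group is 1 array, so the differences below lack any replicate check and no test between the groups was possible.

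These genes are switched on in neurons when synaptic activity lets calcium in and kinases carry the signal to the nucleus. In the hippocampus they are known as the arm of the early response that acts back on the synapse, alongside transcription factors such as Fos and Egr1. Arc is a postsynaptic protein that promotes removal of AMPA-type glutamate receptors from the synapse. Npas4 is a transcription factor induced by calcium influx that controls inhibitory synapses. Nptx2 (also called Narp) is a secreted pentraxin that gathers AMPA receptors, particularly on parvalbumin interneurons. Inhba encodes the subunit of the growth factor activin A, and Plk2 is a kinase that weakens synapses after prolonged activity.

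Promoter sequence was at hand for 3 of the 5 members and is shown because these genes are known for induction through calcium-responsive promoter elements. The 250 bases before the transcription start are given from RefSeq (build GRCm38.p6), 5′ to 3′ on the strand of the gene. Capitals mark matches, on either strand, to a list of motifs that held the cyclic AMP response element CRE (TGACGTCA), its shorter form (TGACG), the AP-1 site (TGANTCA), the core bound by NPAS4 dimers (TCGTG), the TATA box (TATAAA), the CArG box and the MEF2 box.
Npas4, chr19:4989972-4990221, minus strand: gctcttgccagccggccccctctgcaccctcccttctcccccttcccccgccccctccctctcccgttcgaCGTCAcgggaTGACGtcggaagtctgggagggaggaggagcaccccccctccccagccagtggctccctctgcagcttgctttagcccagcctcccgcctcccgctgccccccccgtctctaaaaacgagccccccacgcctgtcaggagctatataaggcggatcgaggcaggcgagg
Plk2, chr13:110394794-110395043, plus strand: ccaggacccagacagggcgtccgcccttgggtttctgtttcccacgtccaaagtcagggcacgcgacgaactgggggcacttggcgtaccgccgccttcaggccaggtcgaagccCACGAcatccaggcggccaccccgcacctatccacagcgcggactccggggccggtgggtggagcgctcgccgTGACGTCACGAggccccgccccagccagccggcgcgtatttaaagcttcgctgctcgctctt
Inhba, chr13:16011601-16011850, plus strand: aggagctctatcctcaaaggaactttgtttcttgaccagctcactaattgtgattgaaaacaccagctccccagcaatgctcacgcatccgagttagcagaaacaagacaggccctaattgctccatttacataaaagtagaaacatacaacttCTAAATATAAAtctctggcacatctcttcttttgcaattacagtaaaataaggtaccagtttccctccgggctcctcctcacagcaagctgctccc
The Npas4 promoter held 2 copies of the shorter CRE form, at 179 to 175 and 169 to 165 bases before the start, a motif found in 17.8% of the 32851 promoters of the table. The Plk2 promoter held a full CRE at 62 to 55 bases before the start, as did 1.55% of promoters, and that CRE contains 2 copies of the shorter form. It also held 2 copies of the NPAS4 core (13.3% of promoters), of which the one at 56 to 52 overlaps the CRE. The Inhba promoter held a MEF2 box at 96 to 87 bases before the start (2.92% of promoters), overlapping a TATA box match at 91 to 86 (12.4%). None of the 3 held an AP-1 site (6.75%) or a CArG box (1.47%) in this window. These matches describe the letters only.

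Arc, Nptx2, Inhba, Npas4 and Plk2 all gave a lower signal on the CeCl3 array than on the control array, by 38.4%, 25.8%, 21.5%, 15.1% and 6.41% on the normalised scale, although Npas4 and Plk2 were higher in the series matrix, a second deposited table with another scaling. In bulk RNA, fewer cells of a type and less RNA per cell cannot be told apart. The signal of a probe is the mean brightness of its beads after background subtraction, and the error given with it here is the standard error over the beads of that array. It therefore covers measurement within an array and leaves out the spread between mice. Detection means a p-value under 0.01 against negative control beads. By this limit 5 of the 7 probes, 1 for each gene, were detected on both arrays, and the remaining 2 on neither.

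Arc had a deposited signal of 665 ± 34.3 on the CeCl3 array (SE, 38 beads), against 1090 ± 76.7 on the control array (40 beads). After background correction and quantile normalisation its log2 signal was 9.40 (CeCl3) and 10.10 (control). The log2 difference, CeCl3 minus control, was -0.70 with a 95% bead interval of -0.94 to -0.46. Arc has a single named probe, so no second probe bears on this value.

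Nptx2 had a deposited signal of 1098 ± 70.5 on the CeCl3 array (50 beads), against 1485 ± 88.7 on the control array (51 beads). The log2 signals were 10.12 (CeCl3) and 10.55 (control), a difference of -0.43 (-0.68 to -0.18). The bead intervals of the 2 signals did not overlap, reaching 1236 on the CeCl3 array and starting at 1311 on the control array. A second Nptx2 probe, named for the same RefSeq transcript, lay below background on both arrays, with signals of -23.4 (CeCl3) and -14.9 (control) and detection p-values of 0.998 (CeCl3) and 0.958 (control).

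Inhba was dim, with a deposited signal of 150 ± 15.7 on the CeCl3 array (50 beads) and 194 ± 39.9 on the control array (30 beads). Its log2 difference was -0.35, and the bead interval of -0.96 to 0.26 held 0. The control value is the less precise one, with a coefficient of variation over beads of 74.4% (CeCl3) and 113% (control).

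Npas4 was also dim. Its detected probe had a deposited signal of 121 ± 15.2 on the CeCl3 array (54 beads) and 145 ± 23.5 on the control array (34 beads), and the log2 difference of -0.24 had a bead interval of -0.77 to 0.29. The second Npas4 probe was not detected, with signals of -6.07 (CeCl3) and -15.8 (control). The transcription factor was thus measured close to the background of the array, and a difference of the size seen for Arc lies within its interval.

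Plk2 had a deposited signal of 491 ± 39.7 on the CeCl3 array (33 beads) and 526 ± 67.5 on the control array (36 beads). The log2 signals were 8.97 (CeCl3) and 9.07 (control), a difference of -0.10 (-0.51 to 0.32). The 2 signals overlapped within bead error.

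**Figure D1:**
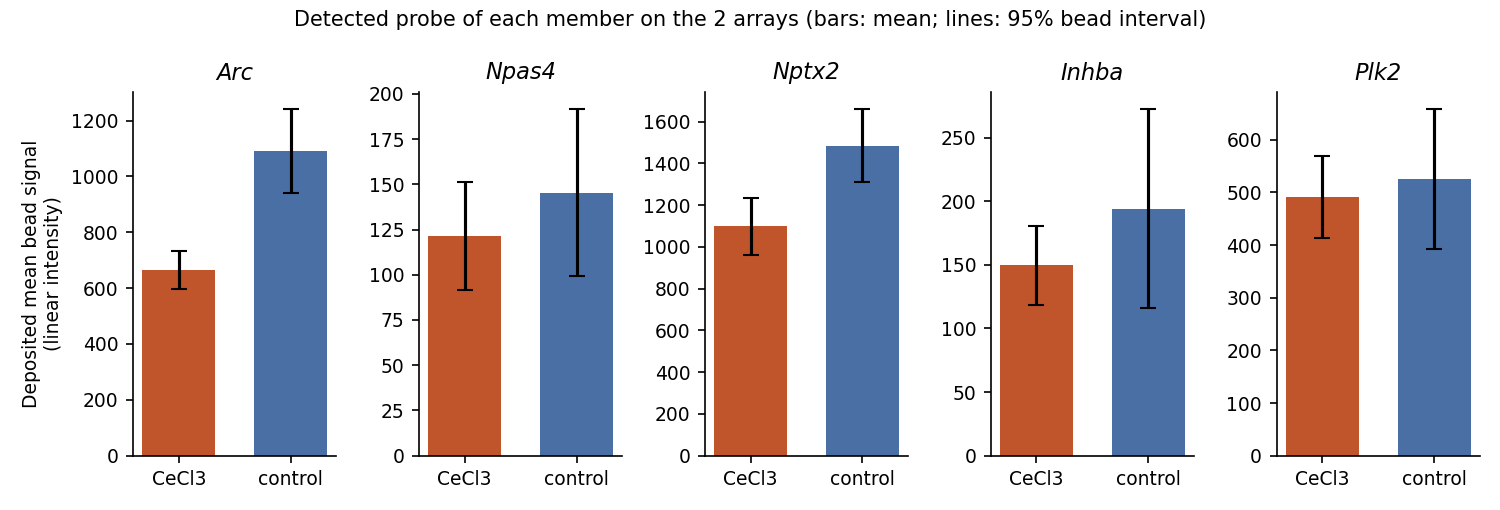
Deposited mean bead signal (linear intensity, y axis, own scale for each gene) of the detected probe of Arc, Npas4, Nptx2, Inhba and Plk2 on the CeCl3 array (left bar) and the control array (right bar), with lines for the 95% bead interval. The intervals are apart for Arc and Nptx2 and overlap for Npas4, Inhba and Plk2.

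Among the 5 genes, 2 had a bead interval wholly below 0 (Arc and Nptx2), 0 had one wholly above 0, and 0 differed by 2-fold or more. Of the 10416 named genes detected on at least 1 array, 14.8% had a bead interval wholly below 0 and 10.5% one wholly above 0, while 1.95% were at least 2-fold lower and 2.77% at least 2-fold higher. All 5 members lay below 0, with the exceptions of scaling given for Npas4 and Plk2, as did 55.8% of all named genes. For the 9473 genes whose brightest detected probe was detected on both arrays, as those of all members were, the shares were 57.7% below 0, 13.9% with an interval wholly below 0, 8.53% with one wholly above 0, 0.496% at least 2-fold lower and 0.486% at least 2-fold higher. The median difference of the 5 members was -0.35, against -0.04 over all named genes. In the series matrix as deposited these medians were -0.05 and 0.18. With 5 genes these counts are descriptions and do not set the members apart from other genes.

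Arc lay in the lower tail of the array. Of the 9473 genes detected on both arrays, 189 (2.00%) had a difference as low as or lower than that of Arc. The share was 8.26% for Nptx2, 12.2% for Inhba, 22.3% for Npas4 and 42.1% for Plk2. The spread of differences narrows with signal, and the dim members were measured where it is wide. Among the 1715 genes with a mean log2 signal from 9 to 10, which include Arc and Plk2, the 5th percentile of the differences was -0.42, so Arc lay beyond it and Plk2 within it. Nptx2 lay beyond the 5th percentile of the 1530 genes from 10 to 11, which was -0.32. Inhba and Npas4 lay within the 5th percentile of the 1573 genes from 7 to 8, at -0.62.

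**Figure D2:**
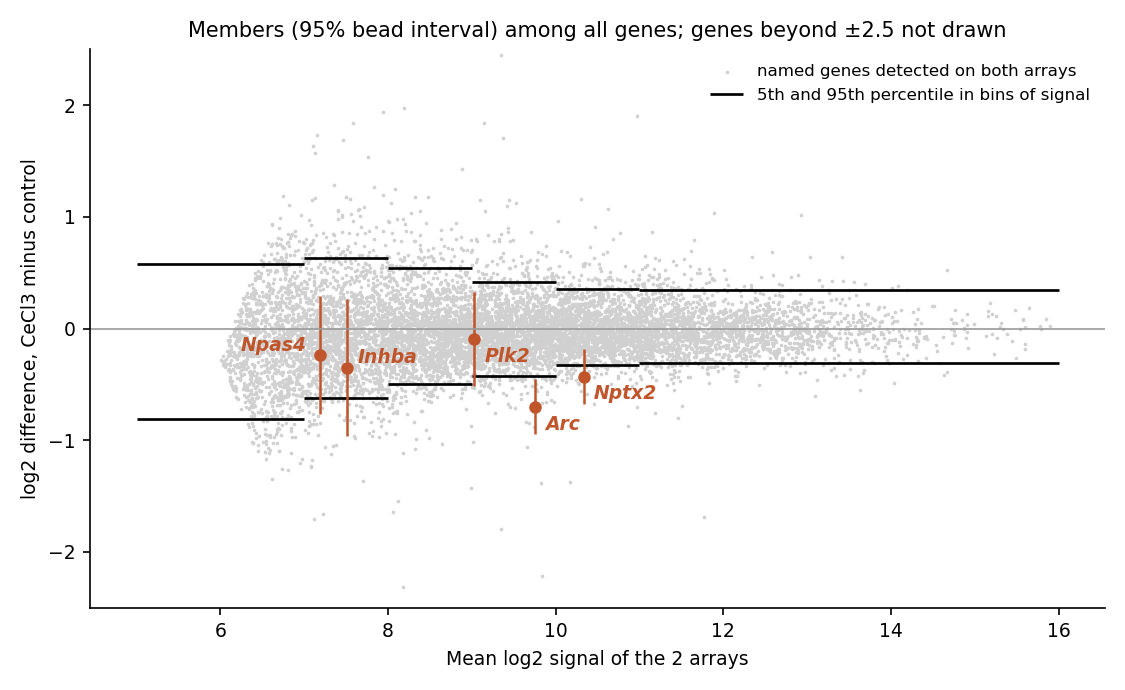
Log2 difference, CeCl3 minus control, against the mean log2 signal of both arrays for named genes detected on both arrays (grey), with the 5 members and their 95% bead intervals in orange and black lines at the 5th and 95th percentile in bins of signal. Arc at -0.70 and Nptx2 at -0.43 lie under the lower line of their bins, and Npas4, Inhba and Plk2 lie inside the lines.

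The differences of the members were compared with each other. Of the 10 pairs among them, the difference between Arc and Plk2 alone exceeded bead error, at -0.60 on the log2 scale (-1.09 to -0.12), and the intervals of the other 9 held 0. A second measure of error comes from genes with several probes. In 3114 genes with at least 2 probes detected on both arrays, the differences of the 2 brightest were 0.23 apart at the median and 0.67 apart at the 90th percentile. That upper value is close in size to the difference of Arc, but it holds the scatter of 2 probes. The SD of 1 probe around its gene was 0.29, and each member rests on 1 detected probe.

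Direction depended on the scaling for the members nearest 0. The series matrix was used with its own scaling, under which the median over all named genes was 0.18. There Arc (-0.56), Nptx2 (-0.28) and Inhba (-0.05) stayed below 0, while Npas4 (0.05) and Plk2 (0.15) lay above it. Relative to that median all 5 were again below 0, from -0.74 for Arc to -0.03 for Plk2. Arc and Nptx2 were below 0 under all 11 alternatives run, with ranges of -0.77 to -0.56 and -0.47 to -0.28. Of these, 5 gave the members identical values, since each member has 1 detected probe and choices among probes cannot alter it.

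**Figure D3:**
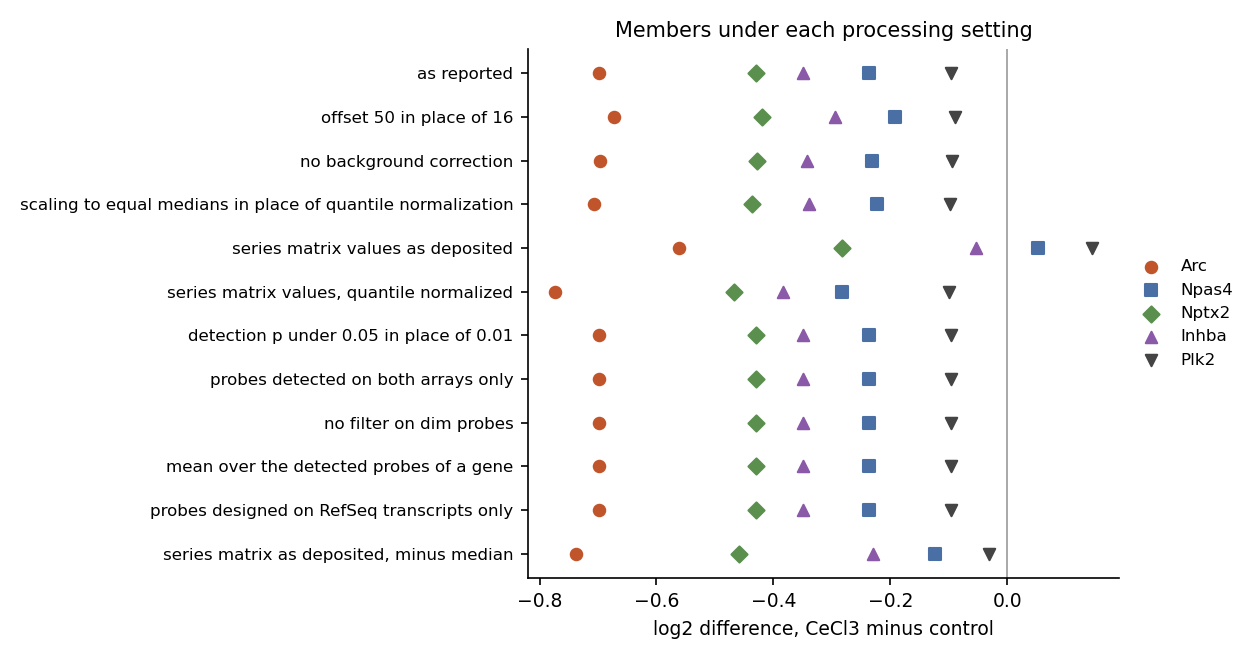
Log2 difference of each member (x axis, CeCl3 minus control) under the reported processing and each alternative (rows). Arc and Nptx2 keep to the left of 0 in every row, while Npas4 and Plk2 cross it in the row of the series matrix as deposited.

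The transcription factors induced with these effectors were lower on the CeCl3 array in 11 of 14 detected genes, against 55.8% of all named genes. Of the 13 detected on both arrays 8 had a bead interval wholly below 0, against 13.9% of all genes. Their median was -0.39, or -0.23 in the series matrix as deposited and -0.18 with no filter on dim probes. Egr2, a zinc finger factor, lay at -1.26 (-1.77 to -0.75) and Fos, a subunit of AP-1, at -1.08 (-1.44 to -0.71). The Egr2 signal on the CeCl3 array, log2 6.10, was close to the lowest detected there, 5.87. Csrnp1, an early-response factor, was detected on the CeCl3 array alone and was at least 7.46-fold higher there. The difference between Arc and Fos was 0.38 (-0.06 to 0.82) and that between Arc and Egr1 -0.31 (-0.66 to 0.05), so Arc differed from neither beyond bead error.

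Other effectors regulated by activity were lower in 12 of 17 detected genes, with a median of -0.14. That median came to -0.0085 in the series matrix as deposited and to -0.18 relative to the median of that matrix. Of the 16 detected on both arrays 3 had a bead interval wholly below 0, a share close to the 13.9% of all genes, of which 57.7% lay below 0. These 3 were Gadd45g, a stress-response and DNA demethylation factor, at -0.34 (-0.57 to -0.10), and, named after their values were seen, the sorting receptor Sorcs3 at -0.29 (-0.56 to -0.03) on its brightest probe and the transcriptional repressor Bhlhe40 at -0.29 (-0.53 to -0.04). A second Gadd45g probe lay at 0.02 (-0.28 to 0.31), and other Sorcs3 probes at -0.09 (-0.33 to 0.15) and -0.05 (-0.33 to 0.23). Rgs2, which limits G protein signalling, lay at 0.53 (-0.12 to 1.17), and the kinase Pim1 passed the detection limit only on the CeCl3 array, where it was at least 1.22-fold higher. By the brightest detected probe of each gene, Arc had the lowest difference of the effectors measured here, members included.

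**Figure D4:**
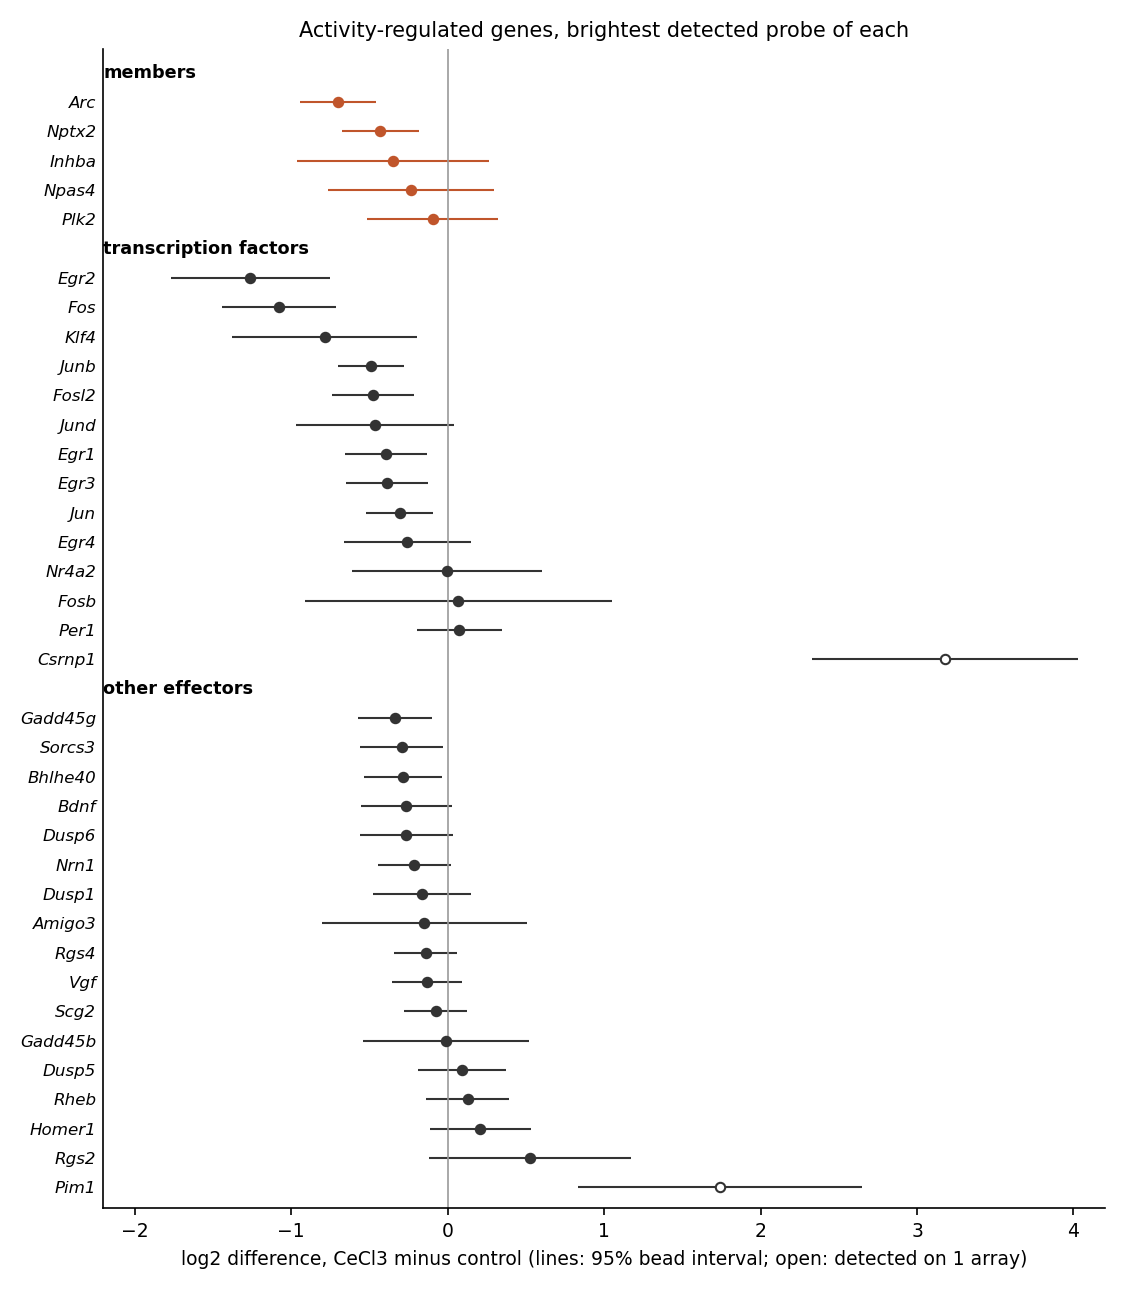
Log2 difference, CeCl3 minus control (x axis), with 95% bead intervals, for the 5 members (orange), activity-induced transcription factors and other activity-regulated effectors, each by its brightest detected probe; open points were detected on 1 array. Most transcription factors lie left of 0 with Egr2 at -1.26 lowest, and the other effectors cluster nearer 0.

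Genes that carry synaptic activity to the nucleus were split, with 7 of 14 detected genes lower, 7 higher and a median of 0.01 (from -0.07 to 0.18 under the alternatives). Creb1, which binds the CRE, lay at -0.35 (-0.66 to -0.05) on its 1 detected probe. The L-type calcium channel gene Cacna1d had a difference of -0.57 on its brightest probe, with an upper bead bound of -0.13, while the other detected probe gave 0.43 (-0.28 to 1.14). The NMDA receptor subunit Grin2a passed the detection limit only on the CeCl3 array and has no bound above 1.

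Arnt and Arnt2 encode proteins that pair with NPAS4 to bind DNA. Arnt was higher on the CeCl3 array by 0.64 (0.40 to 0.89) on its 1 detected probe, with log2 signals of 9.67 (CeCl3) and 9.03 (control). Npas4 minus Arnt came to -0.88 (-1.46 to -0.29), although Npas4 itself has no settled direction, with an interval that held 0 and a value of 0.05 in the series matrix as deposited. Arnt2 was dim and lay at 0.00 (-0.73 to 0.73).

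Nptx1, the pentraxin most closely related to Nptx2 and a partner in its complexes, was higher on the CeCl3 array. Its 1 named probe had a log2 signal of 8.46 (CeCl3) and 7.86 (control), a difference of 0.60 (0.11 to 1.09). Nptx2 minus Nptx1 came to -1.03 (-1.58 to -0.49), so the 2 pentraxins differed unequally between the arrays beyond bead error. Nptxr, the membrane-bound pentraxin receptor, was not detected on either array. The AMPA receptor subunits that pentraxins and Arc act on gave unlike answers on different probes. Gria2 gave 0.69 (0.40 to 0.97) on the brightest probe, against -0.25 (-0.44 to -0.05) on the next. Gria3 lay at 0.79 (0.41 to 1.16) and, on the next probe, at -0.17 (-0.46 to 0.13). Of the 5 genes of this list detected, all lay above 0 on their brightest probes, 3 with an interval wholly above 0 (8.53% of all genes detected on both arrays), and the other 2, named after their values were seen, were Gria1 at 0.08 (-0.14 to 0.30) and the protease Adam17 at 0.24 (-0.16 to 0.64). A Gria1 probe of nearly the same brightness gave 0.83 (0.56 to 1.10), and dimmer ones 0.33 and -0.01 with intervals that held 0. The median of 0.60 became 0.24 with the mean over each gene's probes. Over all genes detected on both arrays, 57.7% lay below 0.

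The activin pathway was divided too. Of 9 detected genes 5 were lower, against 57.7% of all genes detected on both arrays, and 4 higher, with a list median of -0.23. This became 0.08 in the series matrix as deposited (-0.10 relative to the median of that matrix) and 0.07 with the mean over probes. The type I activin receptor gene Acvr1b lay at 0.59 (0.35 to 0.84) and at 0.41 (-0.16 to 0.99) on a dim probe that only the CeCl3 array detected. Acvr1, a related type I receptor, lay at -0.50 (-0.77 to -0.24) on its detected probe, and the co-receptor Tgfbr3 at 0.45 (-0.05 to 0.95). Inhba minus Inha, the subunit that turns activin into the antagonist inhibin, came to -0.42 (-1.11 to 0.28), within bead error.

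On their brightest probes, polo-like kinases and the proteins Plk2 works on stayed near 0. Of 6 detected genes 5 were lower, against 57.7% of all genes detected on both arrays, and the list median was -0.07. The median was 0.06 in the series matrix as deposited and -0.11 relative to the median of that matrix. Other probes spread wider, with Nsf at 1.23 (0.54 to 1.91) and Rasgrf1 from -0.39 (-0.63 to -0.15) to 0.18 (-0.01 to 0.37). Cdk5, the kinase that primes Plk2 targets, lay at -0.25 (-0.44 to -0.06). Plk3 (-0.12, -0.51 to 0.27) and Sipa1l1 (-0.07, -0.40 to 0.26), the spine regulator that Plk2 marks for degradation, had intervals that held 0. Partners of Arc in receptor endocytosis were higher in 7 of 10 detected genes, with a median of 0.11, while 57.7% of all genes lay below 0. Of these 10, 1 had a bead interval wholly above 0 and 2 one wholly below 0. The shares over all genes detected on both arrays were 8.53% and 13.9%. Dnm1, the neuronal dynamin, lay at 0.48 (0.06 to 0.90) on its brightest probe, while others gave 0.16 and 0.19 with intervals that held 0. Ube3a, a ubiquitin ligase reported to act on Arc, lay at -0.54 (-1.03 to -0.05), and the clathrin adaptor subunit gene Ap2a1 at -0.24 (-0.47 to -0.02) and, on a second probe, at 0.08.

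**Figure D5:**
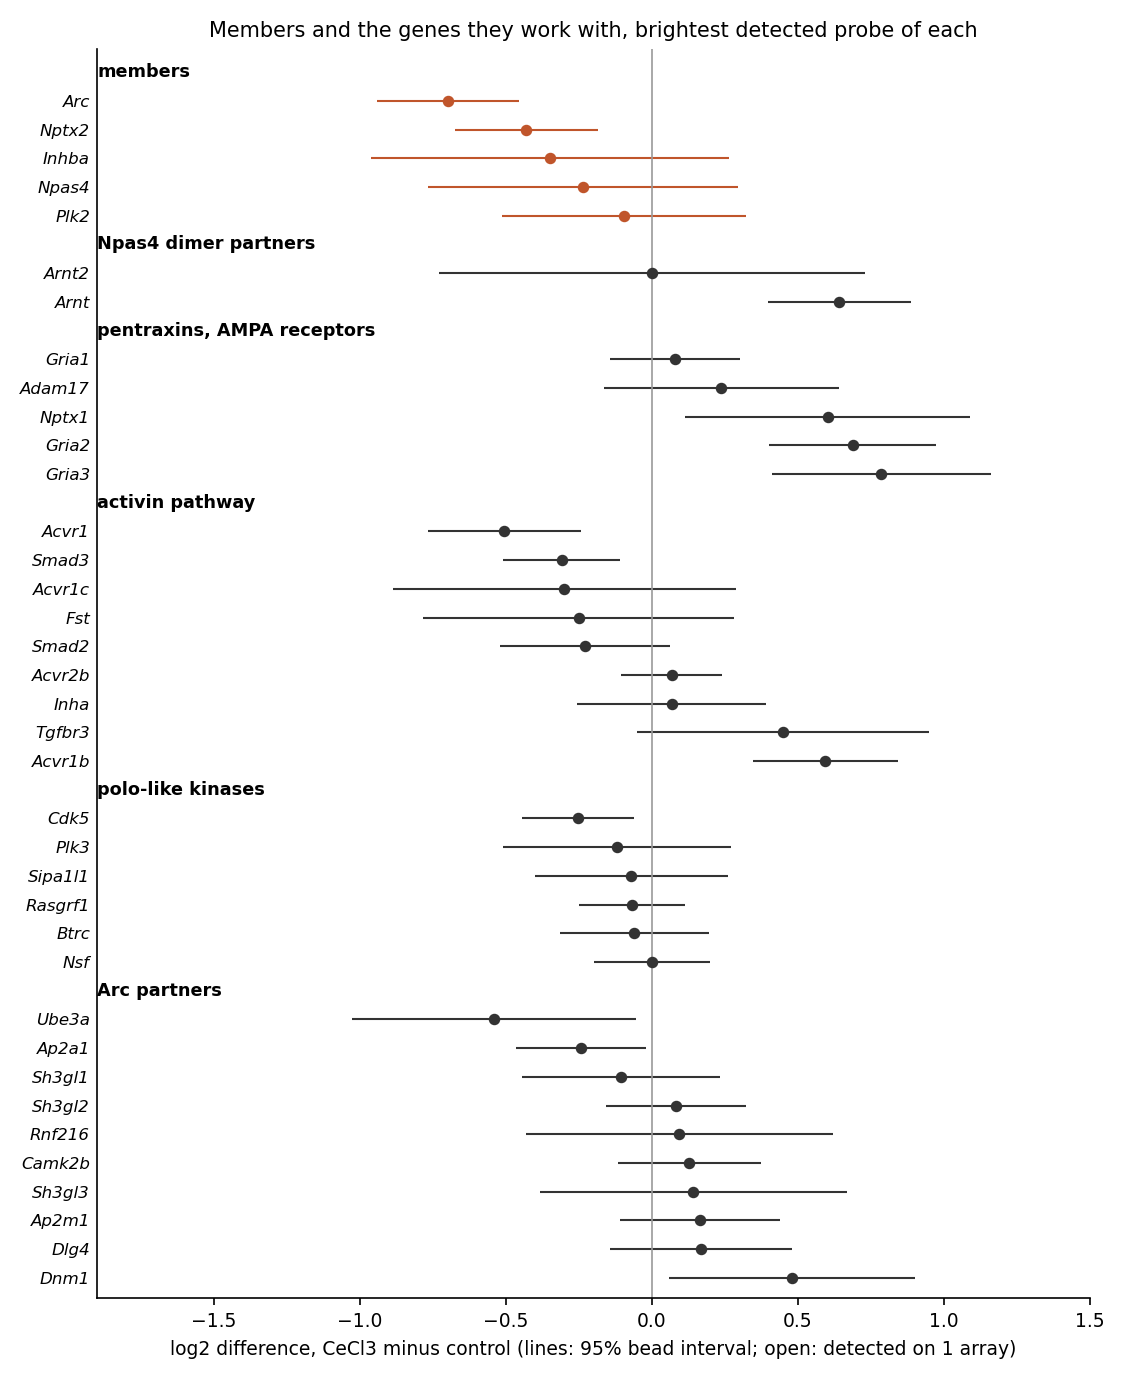
Log2 difference, CeCl3 minus control (x axis), with 95% bead intervals, for the 5 members (orange) and the genes they work with (black), each by its brightest detected probe. Arnt at 0.64 and Nptx1 at 0.60 lie right of 0 and Nptx2 at -0.43 left of it, while the interval of Npas4 at -0.24 (0.05 in the series matrix as deposited) holds 0.

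Markers of hippocampal neurons were detected on both arrays, and their list sums ran from 98.8% to 114% of the control value. The summed signal of the 4 detected of 6 general neuronal markers was 108% of the control value, that of the 3 detected of 5 excitatory markers 114%, that of all 5 CA pyramidal markers 102%, that of 2 detected of 4 granule cell markers 98.8% and that of all 7 interneuron markers 105%. The excitatory marker Slc17a7 lay at 0.21 (-0.03 to 0.44) and Pvalb, of the interneurons that Nptx2 acts on, at 0.05 (-0.13 to 0.23). The 5 members together stood at 74.0% of the control sum, a value carried mostly by Nptx2 and Arc, the brightest members. Astrocyte markers summed to 102% (5 of 5), oligodendrocyte markers to 86.6% (4 of 5), microglial markers to 96.7% (5 of 5), endothelial markers to 92.1% (4 of 4) and choroid plexus markers to 106% (4 of 4), while 0 of 3 ependymal markers were detected. Such sums are carried by the brightest genes of a list. For oligodendrocytes that is Mbp at -0.26 (-0.43 to -0.10). Mog lay at -0.25 (-0.40 to -0.10), Mag at -0.01 and Mobp at 0.01. For choroid plexus it is Ttr at 0.09 (-0.18 to 0.37). Kl lay at -0.40 (-0.77 to -0.03), Aqp1 at 0.28 and Folr1 at 0.09. Blood markers went both ways. Their sum, 95.9% of the control value (4 of 5), is carried by the globin gene Hba-a1 at -0.11 (-0.28 to 0.06), while the other 3 detected were higher on the CeCl3 array. The neutrophil gene S100a8 lay at 2.44 (2.12 to 2.77), S100a9 was at least 2.49-fold higher and Alas2, of erythroid haem synthesis, lay at 0.54 (0.14 to 0.93). The median of these 4 was 1.49, or 0.93 with S100a9 at its bound. Hypothalamic hormone genes, markers of neighbouring tissue, were detected in 4 of 4 cases and summed to 71.2% of the control value. Oxt lay at -0.88 (-1.10 to -0.67), Pmch at -0.43 (-0.68 to -0.18), Avp at -0.39 (-0.73 to -0.06) and Hcrt at 0.04 (-0.30 to 0.38). The part of neuron content, other cell types, blood cells and neighbouring tissue in the members' differences was not tested.

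The arrays lay on different BeadChips, so chip and group cannot be told apart. The CeCl3 array detected 38.5% of all probes and the control array 36.3%, and the median bead number of a probe was 42 (CeCl3) and 44 (control). Xist, the RNA of the inactive X chromosome in female cells, was detected by 0 of 4 probes on the CeCl3 array and by 4 of 4 on the control array (log2 signals of 7.25 to 9.72), although both samples are labelled male. With 1 array per group, a difference in sex between the arrays, if that is what Xist shows, cannot be told apart from the treatment in other genes. The bearing of Xist on the 5 members was not tested.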

How the data were processed

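Biotin-labelled cRNA of the hippocampus was measured on Illumina bead arrays, per the labels' protocols. The submitters' processing notes name BeadStudio, without version or settings. The deposited probe table holds mean bead intensity, its standard error, the number of beads and an unadjusted detection p-value, per the file headers. On each array 27.1% of the deposited intensity values lie below 0, so background had been subtracted, and the upper percentiles (50th to 99th) differ by at most 0.509% between arrays, so it appears already normalised. The series matrix, also deposited as intensity, ranks probes identically but has a ratio of 1.28 between 75th percentiles, CeCl3 over control; their scaling is known from the values alone, and they served as an alternative. Column medians of the series matrix were 15.9 (CeCl3) and 14.2 (control).

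Signals were corrected with normexp in limma 3.58.1 (R 4.3.3) with an offset of 16, negative controls being inferred from detection p-values, then quantile normalised before log2 was taken. Differences of dim probes are pulled towards 0 by the offset. A gene is represented by its detected probe (detection p-value under 0.01 on at least 1 array) with the highest mean log2 signal. Bead intervals are 1.96 standard errors on either side. A gene detected on 1 array is given as a lower bound against the lowest detected signal of the other array (log2 5.87 for CeCl3 and 6.14 for control). The steps were tested on simulated arrays with known changes.

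Probes were named from the platform annotation (34885 with 1 symbol, 18 with several, 10378 unnamed here). Samples were grouped by their labels. With 1 array per group no test was run. Genes named were all members and the 3 with the largest absolute difference in each list. Sorcs3, Bhlhe40, Gria1, Adam17, Egr1, Inha, Smad3, Nsf, Rasgrf1, Xist and the cell type markers given by name fall outside that rule. They were picked with their values in view. The members, lists and tests were chosen with earlier results of these data known. Alternatives were 10 planned settings and 1 added after seeing the data (the series matrix minus its median).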

Additional observations from a re-analysis of the deposited data

How the results depend on the processing

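No paired analysis was possible because each group has 1 array. No alternative leaves out a replicate for the same reason. Counts of members past 2-fold (0) and, where the table gives bead errors, with a bead interval below 0 (2) were the same under every alternative that gives them; the series matrix holds no bead errors. The sign changes of Npas4 (0.05) and Plk2 (0.15) in the series matrix as deposited were smaller than their bead intervals. The median of the activin list was -0.23 and became 0.0771 in the series matrix as deposited, for which the cause was not tested. With the mean over probes it became 0.0673. That setting averages the Smad3 probes, at -0.31 and 1.05, and so moves Smad3 above 0. The list of polo-like kinases reached 0.06 in the series matrix as deposited, or -0.11 relative to the median of that matrix. That of signalling genes ranged from -0.07 to 0.18. Over all named genes, the counts at least 2-fold higher and lower were 289 and 203, against 70 and 37 with an offset of 50, 46 and 47 for probes detected on both arrays, 315 and 320 with a detection limit of 0.05, 315 and 325 with no filter, 467 and 90 in the series matrix as deposited, and 301 and 138 relative to its median. The share on the higher side was thus 58.7%, against 83.8% in the series matrix as deposited. Signal over background limits Npas4 and Inhba, the dimmest members.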
